A study of Mus musculus with 2 samples.

Results

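The genes described here are 10 genes that mark or maintain epithelial cells: Epcam, Cdh1, Cldn6, Cldn7, Perp, Trp63 (which encodes p63), Grhl2, Grhl3, Esrp1 and Esrp2. They were taken by symbol and not by a rule on their values, although earlier results of these data were known. All 10 were found among 43346 Ensembl gene rows, with 41 of 103639 transcript rows. The tissue was limb of mouse embryos at embryonic day 10.5, strain B6NCrl, both sexes pooled, with no treatment or mutant named in the labels. There was 1 group of 2 biological replicates, a pool from 69 embryos (replicate 1) and a pool from 51 embryos (replicate 2), each sequenced as total RNA longer than 200 nt from an input of 10 ng with spike-in RNAs. Whole limb tissue was used, so the epithelial covering was measured together with the mesenchyme it encloses, blood vessels and blood cells. In such a bulk sample, fewer cells of a type and less RNA per cell cannot be told apart.

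The early limb bud is a core of mesenchyme under a thin sheet of ectoderm, whose thickened rim, the apical ectodermal ridge, sends growth signals to the core. Ectodermal cells are held together by E-cadherin (Cdh1), claudins and desmosomes. The transcription factor p63 is required for the ridge and for stratified skin, grainyhead factors maintain epithelial junction genes, and ESRP proteins impose epithelial splice choices on other transcripts. Factors of the Snai, Zeb and Twist families, which limb mesenchyme uses, repress epithelial genes in other settings.

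Trp63 has a start upstream and another 118 kb further into the gene, and the start decides the N-terminal part of the protein. Transcripts from the upstream start (TA) encode the transactivation domain, and transcripts from the internal start (delta-N) lack it. The first coding stretches are shown because they tell the forms apart. They lie on the plus strand at chr16:25684290-25684351 (TA, exon 1) and chr16:25802060-25802101 (delta-N) of GRCm38, were read from GENCODE M21 transcripts, and have the start codon in capitals. The delta-N stretch of 42 nt is all the coding sequence particular to that start, whereas the TA start adds 324 coding nt over 3 exons, of which the first 62 nt are printed.
TA exon 1: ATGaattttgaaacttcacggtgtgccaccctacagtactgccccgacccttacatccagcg
delta-N: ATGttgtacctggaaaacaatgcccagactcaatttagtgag

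A second choice separates the 2 delta-N transcripts with the highest counts. Trp63-201 encodes 586 codons and Trp63-205 encodes 582, and they differ by a segment of 12 nt (4 codons) at chr16:25866200-25866211, in capitals below between 24 nt of flank on each side.
Trp63-201: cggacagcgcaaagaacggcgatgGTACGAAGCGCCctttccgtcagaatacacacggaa
Trp63-205: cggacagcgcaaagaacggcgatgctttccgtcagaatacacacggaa

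Promoter windows from RefSeq (GRCm38.p6, 250 bases before to 50 after a start) matched 4 of the 10 genes, namely Epcam, Grhl3, Cldn6 and Cldn7, the last with a pair of starts. Cdh1, Perp, Trp63, Grhl2, Esrp1 and Esrp2 were not matched. Both strands were searched for CACCTG, the E-box that Snai and Zeb factors bind, and for AACCNGTT, a grainyhead motif. CACCTG on either strand was present in 20.2% of 32851 windows of 300 bases and AACCNGTT in 2.09%. The windows of Epcam, Grhl3, Cldn6 and the Cldn7 start at 69965421 each held 2 matches to CACCTG, and the window of the other Cldn7 start at 69964779 held none. No member window held AACCNGTT. A match describes letters and is not evidence of binding. The Epcam and Grhl3 stretches are shown because they come from the member with the highest level and from the member with the largest excess in replicate 2 over replicate 1 under every scaling tried. Each is the 250 bases before the start, 5′ to 3′ in the direction of the gene, with matches to CACCTG or its reverse complement CAGGTG in capitals. The Epcam stretch is chr17:87635729-87635978 on the plus strand, with matches at -187 to -182 and -19 to -14 from the start. The Grhl3 stretch is chr4:135573633-135573882 on the minus strand, with 1 match at -19 to -14, and its second match lies after the start at 8 to 13.
Epcam: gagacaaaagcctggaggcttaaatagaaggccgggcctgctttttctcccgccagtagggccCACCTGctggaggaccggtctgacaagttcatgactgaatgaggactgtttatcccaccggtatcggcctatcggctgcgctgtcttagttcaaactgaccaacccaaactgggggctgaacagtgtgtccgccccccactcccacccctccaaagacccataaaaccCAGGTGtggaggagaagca
Grhl3: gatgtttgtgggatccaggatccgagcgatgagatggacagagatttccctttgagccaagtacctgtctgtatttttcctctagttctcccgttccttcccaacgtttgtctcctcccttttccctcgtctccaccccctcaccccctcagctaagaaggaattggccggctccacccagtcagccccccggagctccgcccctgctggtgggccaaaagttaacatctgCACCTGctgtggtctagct

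All 10 genes were expressed, that is, at a TPM (a transcript abundance corrected for length and library depth) of 1 or more in both libraries. Among all Ensembl genes 31.1% reached that level and among protein-coding genes 55.2%. The members held 180.77 TPM together in replicate 1 and 169.16 in replicate 2. Their median was 15.9 and 15.8 TPM, against 19.9 and 22.4 for the 11853 expressed protein-coding genes. Expected counts (estimated reads) per member and library ran from 342.49 to 1836, out of library totals over Ensembl genes of 38932221 and 42465744. Values below are given per library and then as the mean ± SD over 2 libraries, and TPM intervals are those deposited in the tables, whose level the tables do not state. With 1 group of 2 libraries no p-value was computed, and differences between the libraries are given as log2 of replicate 2 over replicate 1 after TMM scaling, with an exact binomial 95% interval that covers counting error only.

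**Figure D1:**
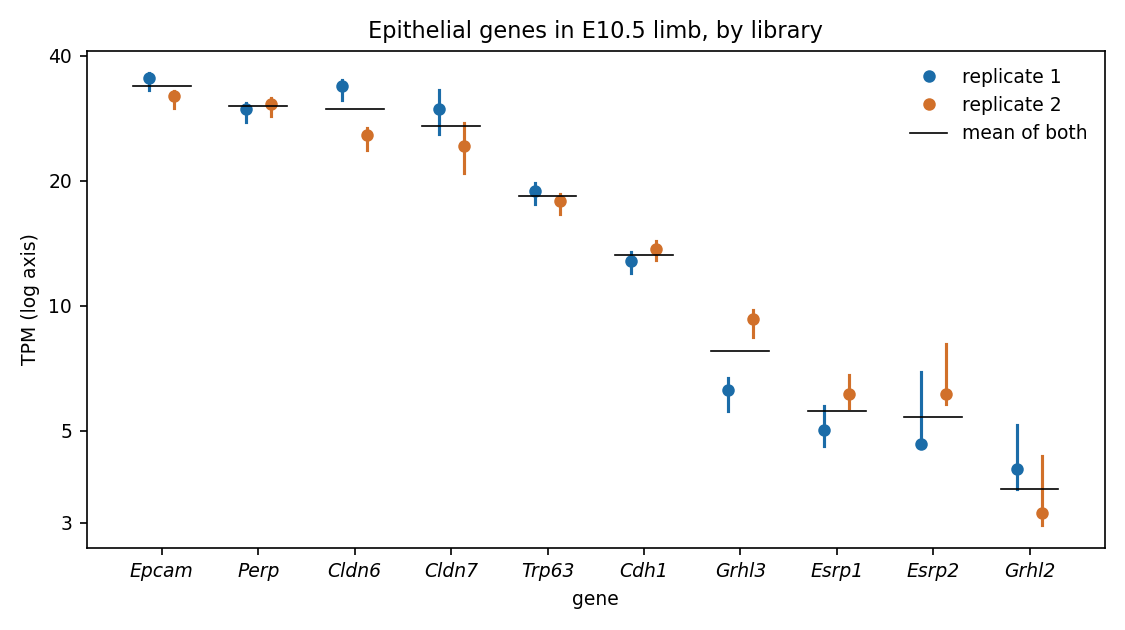
TPM of the 10 epithelial genes (log axis) in each library, ordered by mean. Points are the deposited TPM, vertical lines the deposited intervals and black lines the mean of both libraries. Epcam, Perp, Cldn6 and Cldn7 sat between 24.32 and 35.48 TPM, Trp63 and Cdh1 below them, and the Grhl and Esrp genes between 3.17 and 9.27.

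Epcam, a homophilic adhesion protein of epithelial membranes (ENSMUSG00000045394.8, chr17:87635979-87651129), was the highest of the 10. It stood at 35.48 TPM in replicate 1 and 32.05 in replicate 2 (33.8 ± 2.43, SD, n = 2), from 1836 and 1728 counts. Replicate 1 was the higher, the deposited intervals (33.1 to 36.3 and 29.9 to 32.9) did not overlap, and the log2 difference was -0.29 (-0.39 to -0.20). With spike-in counts as the scale it was -0.03 and its interval included equality. Its level exceeded that of 62.3% of expressed protein-coding genes. The gene had a single transcript in the tables, so its level did not depend on a division of reads between transcripts.

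Cdh1 encodes E-cadherin, the cadherin of epithelial adherens junctions (ENSMUSG00000000303.8, chr8:106603351-106670246). Its level was 12.84 TPM in replicate 1 and 13.73 in replicate 2 (13.3 ± 0.629, SD, n = 2). The libraries overlapped in their deposited intervals, and the log2 difference of -0.06 (-0.16 to 0.05) included equality. The full coding transcript Cdh1-201 took 98.9% and 98.2% of the gene's TPM. Relative to Epcam within the same library, Cdh1 stood at 36.2% in replicate 1 and 42.8% in replicate 2.

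Cldn6 and Cldn7, claudins of the tight junction, were near Epcam in level, and both were lower in replicate 2. Cldn6 (ENSMUSG00000023906.2, chr17:23679249-23682446) measured 33.86 and 25.77 TPM (29.8 ± 5.72, SD, n = 2) and Cldn7 (ENSMUSG00000018569.8, chr11:69964779-69967885) 29.81 and 24.32 TPM (27.1 ± 3.88, SD, n = 2). The log2 difference was -0.54 (-0.66 to -0.42) for Cldn6 and -0.56 (-0.72 to -0.40) for Cldn7, and both intervals stayed below equality under the other scalings of counts. The deposited intervals of the libraries did not overlap for Cldn6 and did overlap for Cldn7. Cldn9, whose gene ends 137 nt from that of Cldn6 on the other strand, measured 1.63 and 3.88 TPM from 58 and 144 counts, a log2 difference of 1.08 (0.66 to 1.57) in the opposite direction.

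Most Cldn7 reads were assigned to Cldn7-201, from the start at 69965396, with 91.6% and 85.8% of the gene's counts and 70.9% and 61.0% of its TPM. The short Cldn7-205, a model of 373 nt that begins inside the gene, took 8.25% and 10.3% of counts but 28.8% and 32.9% of TPM. A share in TPM divides by effective length, which is the length minus 99 nt in these tables, so a short model weighs more in TPM than in counts. The 3 transcripts from the upstream start had 1.33 counts in replicate 1 and 23.49 in replicate 2, that is, 0.23% and 6.08% of TPM.

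Perp encodes a tetraspan protein of desmosomes and is a direct target of p63 in skin (ENSMUSG00000019851.7, chr10:18845020-18857073). It was 29.87 TPM in replicate 1 and 30.71 in replicate 2 (30.3 ± 0.594, SD, n = 2), the smallest SD among the members. The log2 difference was -0.10 (-0.21 to 0.00) and its interval included equality. Perp and Cldn6 were the 1 pair of 45 whose order changed between the libraries, with Cldn6 above Perp in replicate 1 and below it in replicate 2.

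Trp63 (ENSMUSG00000022510.10, chr16:25683763-25892102) was the highest of the 3 transcription factor genes among the members. Its level was 18.95 TPM in replicate 1 and 17.88 in replicate 2 (18.4 ± 0.757, SD, n = 2), from 1701 and 1751 counts. The deposited intervals overlapped, and the log2 difference was -0.16 (-0.26 to -0.06) after TMM scaling but 0.10 with spike-in counts as the scale. Relative to Epcam, Trp63 stood at 53.4% in replicate 1 and 55.8% in replicate 2. Of the other genes of its family, Trp53 measured 223.54 and 204.69 TPM and Trp73 0.25 and 0.67, so Trp63 lay between them in both libraries.

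Delta-N transcripts made up most of Trp63. They took 88.3% of the gene's TPM in replicate 1 and 86.9% in replicate 2 (87.6 ± 0.980, SD, n = 2), and 94.2% and 93.8% of its counts. TA transcripts took the remaining 11.7% and 13.1% of TPM. All TA counts (99.41 and 109.41) were assigned to 1 model, Trp63-206 (231 codons), which stops after the first shared exon and runs on into the following intron. This model holds 678 nt found in no other Trp63 transcript and 849 nt shared only with other TA transcripts, so reads of the run-on part alone would be counted as TA. Whether its counts came from the upstream start was not tested. The delta-N share is also an estimate. Trp63-201, Trp63-204 and Trp63-205 each have only 186 nt found in no TA transcript. The delta-N model Trp63-203 has a further 1643 nt of its own, which are run-on sequence.

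The 3 full-length TA transcripts, of alpha, beta and gamma ends, had an expected count of 0 in both libraries. Most of their length is shared with other Trp63 models, so this 0 is an estimate and not a direct count. The highest deposited upper bound among them was 0.119 TPM in replicate 1 and 0.109 in replicate 2. Their posterior mean TPM, a second estimate in the tables, summed to 0.590% and 0.624% of the gene.

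Among delta-N transcripts the alpha and gamma ends were both present. The alpha end encodes the C-terminal SAM domain, which gamma lacks. The alpha transcript with the 4 codons shown above, Trp63-201, took 27.96% and 31.74% of TPM, and Trp63-205 without them 28.48% and 30.82%. Which of this pair led differed between the libraries and their intervals overlapped in both, so they could not be ordered. The gamma transcript Trp63-204 (393 codons) took 25.73% and 20.77%. In counts the alpha transcripts of both starts held 77.1% and 81.6% and gamma 12.5% and 9.60%, because the alpha models are the longer ones. Trp63-203 (284 codons), a delta-N model that also runs on into an intron, took 6.14% and 3.59% of TPM.

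**Figure D2:**
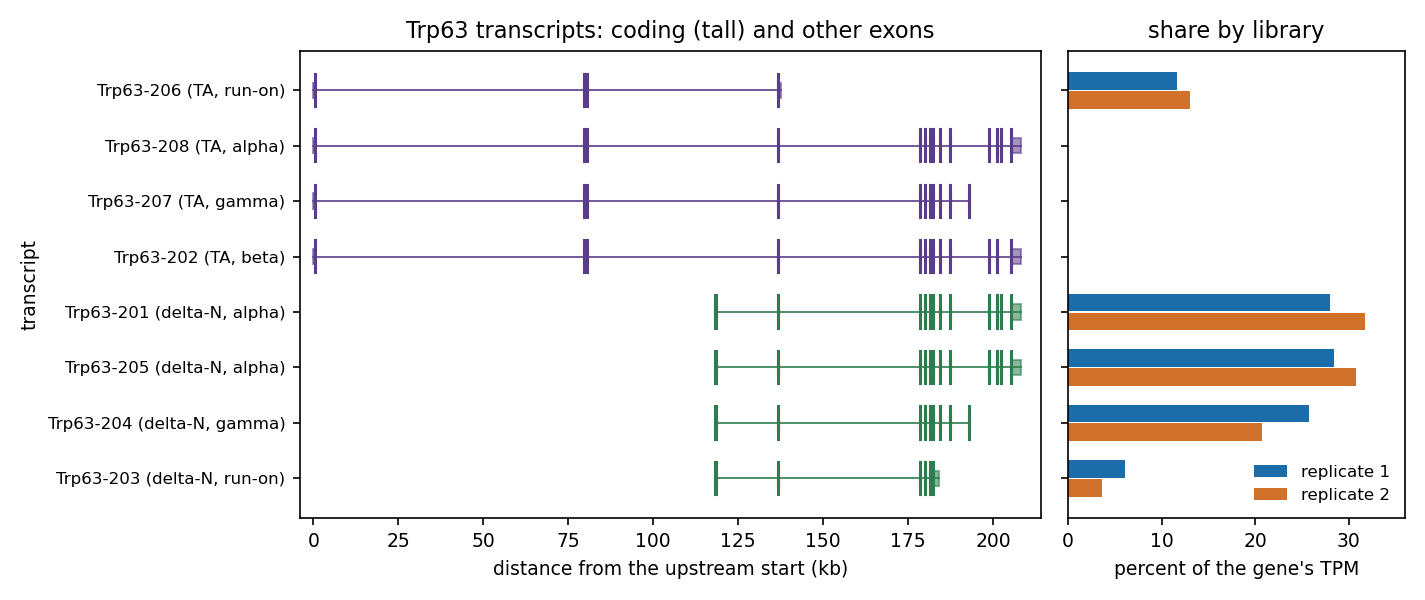
The 8 Trp63 transcripts drawn by distance from the upstream start in kb (left; tall blocks are coding exons, low blocks other exon sequence, and the shortest exons are widened to stay visible) and each one's percent of the gene's TPM in both libraries (right). The bars sit on the 4 delta-N transcripts, which begin 118 kb downstream, and on the TA run-on transcript Trp63-206, while the other 3 TA transcripts have none.

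Grhl2 and Grhl3, grainyhead factors that maintain epithelial junction genes and take part in neural tube and epidermal closure, had differences of opposite sign between the libraries. Grhl3 (ENSMUSG00000037188.7, chr4:135541888-135573630) was 6.26 TPM in replicate 1 and 9.27 in replicate 2 (7.77 ± 2.13, SD, n = 2), with a log2 difference of 0.42 (0.25 to 0.60). Grhl2 (ENSMUSG00000022286.11, chr15:37233036-37363569) was 4.05 and 3.17 TPM (3.61 ± 0.622, SD, n = 2), the lowest member, with a log2 difference of -0.44 (-0.66 to -0.24), which was -0.18 (-0.40 to 0.02) with spike-in counts as the scale. Grhl3 was above Grhl2 in both libraries with intervals apart. Its level relative to Epcam went from 17.6% to 28.9%, a change of 0.71 in log2, the largest among the 9 ratios.

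Grhl3 had 1 transcript, whereas Grhl2 reads were divided. The coding Grhl2-201 led in both libraries with 50.57% and 55.63% of TPM, and the noncoding Grhl2-205 took 32.2% and 27.3%. Their TPM intervals overlapped in both libraries, so the leader was not clear. An antisense gene, Gm16136, shares 169 exon nt with Grhl2 and had 136 and 181.51 counts. The labels do not state whether counting used strand, so reads of this overlap cannot be told apart and the Grhl2 value is less certain.

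Esrp1 and Esrp2 encode paired epithelial splicing regulators and had nearly the same level. Esrp1 (ENSMUSG00000040728.11, chr4:11331933-11386783) measured 5.01 TPM in replicate 1 and 6.13 in replicate 2 (5.57 ± 0.792, SD, n = 2). Esrp2 (ENSMUSG00000084128.6, chr8:106130319-106136974) measured 4.64 and 6.13 (5.39 ± 1.05, SD, n = 2). Both were higher in replicate 2, at log2 0.17 (-0.01 to 0.34) and 0.20 (-0.00 to 0.41), and both intervals included equality after TMM scaling. With total counts as the scale both lay above equality (0.07 to 0.42 and 0.08 to 0.49). With spike-in counts they did too (0.25 to 0.60 and 0.26 to 0.67). Esrp2 shares 219 exon nt with Nfatc3, a gene on the other strand with 702.36 and 817.25 counts, so its value carries the same uncertainty as that of Grhl2.

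Esrp1 reads were spread over several coding transcripts with no clear leader. Esrp1-204 took 46.25% and 28.24% of TPM, Esrp1-203 35.76% and 43.40%, and Esrp1-201 10.64% and 22.75%. Intervals of the leading pair overlapped in both libraries. For Esrp2 the coding Esrp2-201 took 73.98% and 72.16%. Retained-intron models of Esrp2 took 20.7% and 24.7% of TPM from only 4.82% and 4.95% of counts, since most are short.

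Fgfr2, the receptor gene whose exon IIIb is an established ESRP-promoted choice in epithelium and whose exon IIIc is the mesenchymal choice, was measured at 41.8 TPM in replicate 1 and 56.34 in replicate 2. Its IIIb exon is chr7:130199758-130199905 and its IIIc exon chr7:130198419-130198563, both told apart by exon length. Of the TPM in transcripts with either exon, IIIb forms took 48.5% in replicate 1 and 42.7% in replicate 2, and IIIc forms 51.5% and 57.3%. In counts IIIb forms held 708 and 853.1 and IIIc forms 1076.49 and 1619.08, so IIIc forms led by more in counts than in TPM. By these estimates both forms were present in the tissue. Reads were divided between transcripts by estimate, so the values are not direct counts of either exon. Transcripts with neither exon held 51.0% and 51.4% of the gene, so these shares rest on the other transcripts only.

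The order of levels was Epcam, Perp, Cldn6, Cldn7, Trp63, Cdh1, Grhl3, Esrp1, Esrp2 and Grhl2. Of the 9 steps between neighbours, 3 were apart in both libraries by the deposited intervals: Cldn7 above Trp63, Trp63 above Cdh1, and Cdh1 above Grhl3. The other 6 steps did not separate in at least 1 library. Among all 45 pairs, 35 were apart in the same direction in both libraries. Epcam exceeded Grhl2 by 8.76-fold in replicate 1 and 10.1-fold in replicate 2. The structural genes (adhesion and junction) thus stood above the splicing and grainyhead regulators in every library, with Trp63 between Cldn7 and Cdh1.

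None of the 10 genes differed by 2-fold between the libraries. At 1.5-fold none passed after TMM scaling, and Grhl3 did with spike-in counts as the scale (1.60-fold). Of the 16860 genes tested (mean count 10 or above), 3.97% reached a 2-fold rise from replicate 1 to replicate 2 and 1.49% a 2-fold drop. The counting interval lay above equality for 1 member (Grhl3) and below it for 5 (Epcam, Cldn6, Cldn7, Trp63 and Grhl2), against 26.3% and 26.9% of all genes tested. For Cdh1, Perp, Esrp1 and Esrp2 it included equality. Over the members the median log2 difference was -0.13, beside 0.01 over all genes tested, whose quartiles were -0.18 and 0.23. The median size of the difference, regardless of sign, was 0.25 for the members and 0.20 for all genes. These are descriptions of 2 libraries: the chi-square of counts between them was 31.2 per degree of freedom, so the libraries differed beyond sampling noise in general.

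For some members the direction depended on the scaling between libraries. With spike-in counts as the scale, which moved the median of all genes tested by 0.26 in log2, Trp63, Cdh1 and Perp were higher in replicate 2 instead of lower (by 0.10, 0.20 and 0.15), and intervals excluded equality for 6 members above and 2 below. The share of all genes tested with such intervals was not computed under this scaling. With spike-in counts the calls of Epcam and Grhl2 were lost, and that of Trp63 was lost with total counts as the scale. Esrp1 and Esrp2 gained a call above equality with total counts and with spike-in counts. Cdh1 and Perp gained a call above equality with spike-in counts. Perp gained a call below equality with DESeq2 size factors. Deposited TPM moved the median of all genes by 0.11. Relative to the median of all genes, the member median was -0.14 under each of the 4 scalings of counts and -0.14 in TPM. The 4 values are equal by construction, because another scaling of counts shifts every gene by the same amount.

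**Figure D3:**
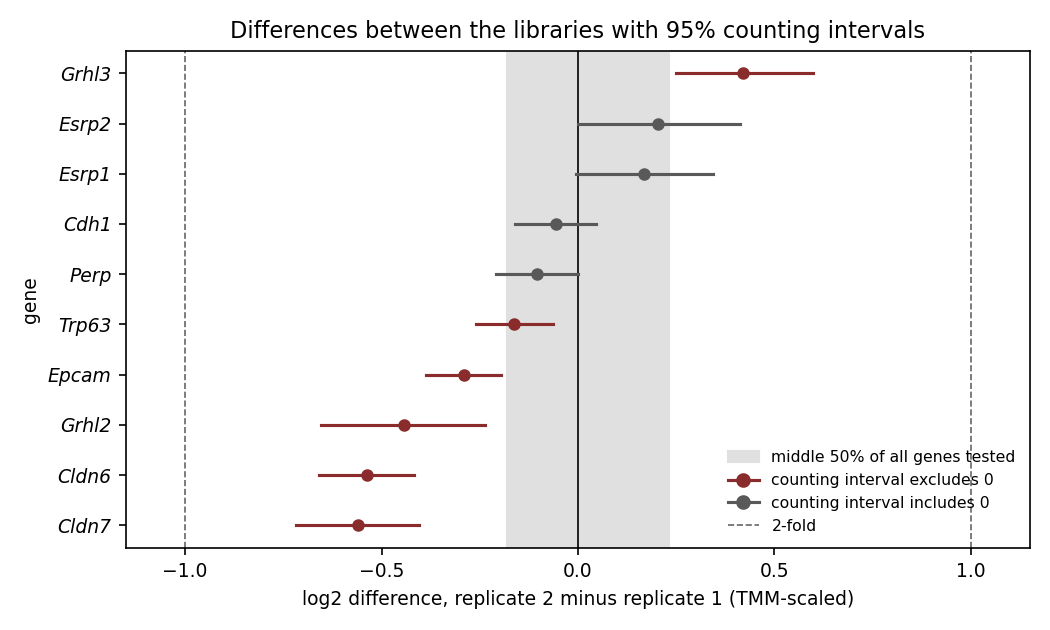
Log2 difference of each member between the libraries (horizontal axis, replicate 2 minus replicate 1 after TMM scaling) with 95% counting intervals. The grey band is the middle 50% of all genes tested (-0.18 to 0.23) and dashed lines mark 2-fold; Grhl3 lies above the band and Epcam, Grhl2, Cldn6 and Cldn7 below it.

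Other genes of the epithelial programme were read from lists named for their role. The counts of expressed genes per list stand beside 31.1% of all Ensembl genes and 55.2% of protein-coding genes. Of 17 further genes of tight and adherens junctions, 16 were expressed. The highest were Ctnnb1, the beta-catenin gene that every cell type uses (420 TPM, mean), and Ctnnd1 (32.9), and Marveld3 (0.530) did not reach the threshold. The interval lay above equality in 3 of the 17 and below in 4, beside 26.3% and 26.9% of all genes tested, and the median difference was -0.00. Of 10 desmosome and envelope genes 8 were expressed, led by Jup (32.3 TPM) and Pkp3 (7.36), and Pkp1, the lowest of the list (0.390), was not among them. Their median difference was 0.11, with 5 of 10 intervals above and 3 below equality.

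Grainyhead and Ovol factors and known grainyhead targets were expressed in 8 of 11 cases, led by the protease inhibitor gene Spint2 (51.8 TPM) and by Lmo4 (44.9). Grhl1, the third grainyhead factor, was under the threshold at 0.430 and 0.600 TPM and below both Grhl2 and Grhl3 in each library. Its mean was the lowest of the list. Ovol1 (0.48 and 0.76 TPM) and Ovol2 (0.81 and 0.35 TPM) were also under the threshold, and Ovol2 was below Grhl1 in replicate 2. Ovol2 was past 2-fold lower in replicate 2, from 31 and 14 counts (log2 -1.23, -2.38 to -0.40). All 8 known ESRP splicing targets were expressed, from Cd44 (2.77 TPM) to Nf2 (52.4) and Fgfr2 (49.1). All 7 apicobasal polarity genes were expressed, from Crb3 (1.91) to Pard3 (29.0) and Prkci (29.9).

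All 6 repressors of epithelial genes were expressed, led by Snai1 (98.92 and 79.69 TPM) and Twist2 (39.45 and 33.73), with Zeb2 lowest (3.79 and 4.40). Snai1 was thus above every member in both libraries. Epithelial genes and these repressors were measured in the same mixed tissue, and their presence in the same cells was not tested.

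The list of the p63 family and known p63 targets had 11 of 15 genes expressed. The interval lay above equality for 10 of 15 and below for 4, beside 26.3% and 26.9% of all genes tested, and the median difference was 0.22. Krt14, a keratin of basal epidermal cells, measured 6.69 TPM in replicate 1 and 26.99 in replicate 2, from 211 and 987 counts, a log2 difference of 2.01 (1.81 to 2.24). It was 1 of 2 genes of this list past 2-fold, the other being Trp73 at 31 and 87 counts.

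**Figure D4:**
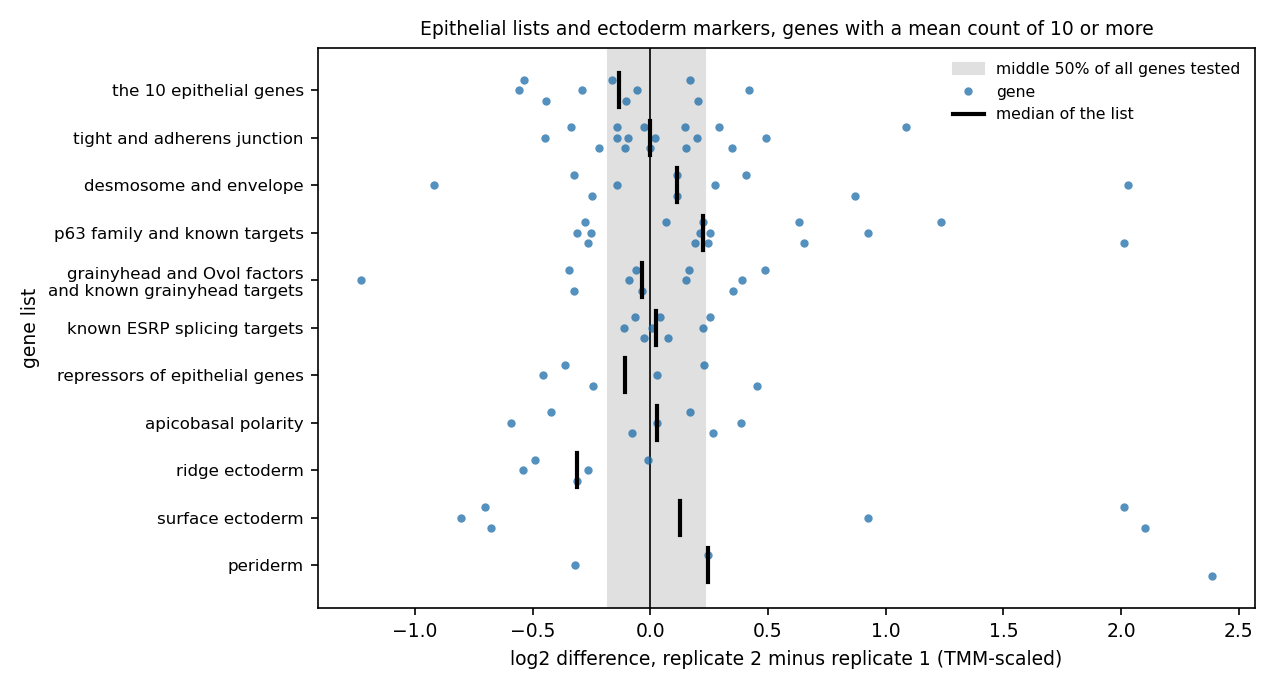
Log2 difference between the libraries (replicate 2 minus replicate 1, TMM-scaled) for the 10 members, 7 lists of related genes and 3 lists of ectoderm markers. Each dot is a gene with a mean count of 10 or more and black bars are list medians; the surface ectoderm list splits into 3 genes above 0 and 3 below, and no gene of the ridge list lies above 0 on this scale.

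Ectoderm markers did not move as one block between the libraries. In the surface ectoderm list, all 6 genes were expressed and its summed level was 112.31 and 127.7 TPM. Krt18 (42.44 and 28.78 TPM) and Krt8 (38.65 and 26.69), keratins of simple epithelium, were lower in replicate 2 at log2 -0.70 and -0.68. Wnt7a, a signal of dorsal ectoderm, was also lower (7.03 and 4.11 TPM, log2 -0.80). Krt14 and Krt15 were higher, the latter at 1.34 and 7.15 TPM and log2 2.10. Krt5 (16.16 and 33.98 TPM) was higher at log2 0.93. Of the 5 periderm markers 3 were expressed, and the median difference of the 3 tested was 0.25. Sfn, the highest of them, was higher in replicate 2 (24.8 and 32.53 TPM, log2 0.25). Among the keratins of the list, Krt17 was higher (1.06 and 6.35 TPM, 41 and 256 counts, log2 2.39). Krt19 was lower (11.67 and 9.42 TPM, log2 -0.32). Krt6a had 0 and 7.23 counts, and Krt4 had 0 counts in both libraries. A count of 0 allows up to 3 counts per library.

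After TMM scaling all 5 ridge ectoderm genes were lower in replicate 2 (4 of 5 with spike-in scaling or in TPM). Of the 5, 4 had intervals below equality, beside 26.9% of all genes tested. The exception was Wnt3, at log2 -0.01 (-0.22 to 0.20). The list median was -0.31, or -0.05 with spike-in scaling. Fgf8, the main ridge signal, measured 88.5 and 65.93 TPM, a log2 difference of -0.54. The part of ectoderm makeup in the member differences was not tested.

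Markers of other cells that can express some of the members were also read. Germ cell markers summed to 1.93 and 2.10 TPM with 1 of 5 expressed (Nanos3), and Dazl had 0 and 2 counts. Endoderm markers summed to 13.16 and 11.19 TPM, of which Sox17, a gene also used by endothelium, gave 9.95 and 9.80, and Foxa1 and Foxa2 had 5 and 7 counts in replicate 1 and 0 in replicate 2. Neural tube markers summed to 0.280 and 0.230 TPM with none of 4 expressed. Nephric and coelomic epithelium markers summed to 13.64 and 7.35 TPM with 2 of 6 expressed. In that list Upk3b, a gene of the coelomic lining, measured 7.06 and 1.92 TPM from 423 and 120 counts, and Wt1 5.50 and 4.67 TPM, so both stood above Grhl2 in each library except Upk3b in replicate 2. Their part in the members' levels was not tested.

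Limb mesenchyme markers summed to 632.69 TPM in replicate 1 and 738.79 in replicate 2, with Msx1 and Prrx1 highest. Lum, a matrix gene, was the 1 mesenchyme marker past 2-fold (7.82 and 23.45 TPM). Endothelial markers summed to 144.29 and 151.7 TPM, erythroid markers to 11724.7 and 9549.54, macrophage markers to 16.69 and 21.02, and neural crest and glia markers to 5.49 and 9.20. The members' sum of 180.77 and 169.16 TPM thus moved down where the mesenchyme sum moved up. Neither group moved as one in TPM. Cdh1, Perp, Grhl3, Esrp1 and Esrp2 were higher in replicate 2 and the other members lower. Of the mesenchyme markers 4 were higher, and Msx1 (310.7 and 302.42) and Twist1 (27.99 and 26.1) were lower. The share of tissue types in these differences was not tested.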

How the data were processed

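Total RNA of E10.5 mouse limb was measured in 2 libraries. The authors' deposited gene and transcript tables give expected counts, TPM, a posterior mean TPM, the lower and upper TPM bounds (here treated as signal values) and, per transcript, the percent of the gene's TPM. Per the sample text files, the quantification started from alignments to the transcriptome (mm10, GENCODE M4). The aligner, quantifier, their versions and the strand setting were not given in the sources used here. Spike-ins (96 rows) and 26248 rows with numeric identifiers stayed out of library sizes. Symbols, coordinates and exons came from GENCODE M21 on GRCm38, which named 98.0% of Ensembl rows (42462 of 43346). Of the 41 member transcripts, 39 have the same length in M21.

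Expected counts, rounded, were scaled with edgeR 4.0.16 (TMM, log2 CPM, prior count 2) in R 4.3.3. Counting intervals are exact binomial (95%). These intervals and limits for 0 counts cover counting error only, as the labels name no molecular identifiers. The code was tested on simulated data. Alternatives were DESeq2 1.42.0 size factors, total and spike-in counts, deposited TPM, other thresholds and each library alone. Intervals under other scalings were added after seeing the data. Other steps used Python 3.11.15.

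The members and gene lists were chosen with earlier results of these data known. Named genes are all members, genes past 2-fold at a mean count of 100 or more, Trp53, Trp73 and Fgfr2. The 2 highest and the lowest gene of a list by mean TPM were also to be named, but this was not done for every list. The endothelium, erythroid, macrophage and neural crest lists were given by sums only. Others named, such as Krt5, Wnt7a, Krt19, Ovol1, Ovol2 and marker genes at 0, were chosen after their values were seen. No gene was selected for a like pattern, because 2 libraries give 1 difference.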

Additional observations from a re-analysis of the deposited data

How the results depend on the processing

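All 10 members stayed expressed at a TPM threshold of 0.5, by posterior mean TPM and in each library alone, and 8 did at a threshold of 5. No member passed 2-fold under any scaling tried and 1 passed 1.5-fold, Grhl3 with spike-in counts (1.60-fold). The median member difference of -0.13 was -0.14 with DESeq2 size factors, -0.05 with total counts, -0.02 in deposited TPM and 0.13 with spike-in counts, where Trp63 also turned from -0.16 to 0.10. The number of members with a counting interval excluding equality was 6, and 7, 7 and 8 with DESeq2, total and spike-in counts. The share over all genes tested was computed after TMM scaling only (26.3% above and 26.9% below). By construction another scaling of counts shifts every gene by the same amount. The delta-N share of Trp63 was 87.6% of TPM, 87.0% by posterior mean, 94.0% of counts, and 86.9% to 88.3% in single libraries. The leading transcript was the same in both libraries for 8 members by TPM and by posterior mean TPM, of which 4 have a single transcript. Each library is 1 pool, so pool, library and batch cannot be told apart, and depth limits the low transcripts, whose shares rest on few counts. No paired analysis was possible because there is only 1 group.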
